A study of Mus musculus with 2 samples.

Results

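In the mouse uterus, 8 gene spans held a very high m6A peak with its summit near one end of the span. The genes are Ahdc1, Znhit6, Aebp2, Gnai2, Ssbp3, Syncrip, Svbp and Rp2. They were chosen from 12 protein-coding genes with the highest fold enrichment in the deposited peak list, under limits. The summit had to lie in no other gene, and −log10 q, the caller's score of significance, had to be at least 5. The 8 genes were taken because their summits lay near either end of the gene span. Fold enrichment and distance to a gene end therefore chose them, and both are given as a description with no test. The 8 genes are among 12134 protein-coding genes that held a peak summit. They held 32 of the 38366 peaks in the list.

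N6-methyladenosine (m6A) is an internal mark of mRNA, written by a nuclear methyltransferase complex and read by proteins that steer splicing, translation and decay. It is best known near stop codons and in long internal exons. In MeRIP-seq, RNA fragments that bind an antibody against the mark are sequenced beside an input taken without antibody. Such antibodies also bind m6Am, a related nucleotide next to the cap of some mRNAs.

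The m6A group was 1 library of wild-type C57BL/6 whole uterus, labelled as gestation days 4 and 8 pooled in equal amounts. The input group was 1 library of whole uterus of the same strain with no antibody, and its label names neither a day nor pooling. Peak names in the list carry the tag D8 and none for day 4, so the pooling rests on the label. The 2 days cannot be told apart, and no number of animals is given in the sources used here. With 1 library per group there is no replicate, so no difference between groups was tested. Of 12 marker genes of uterine stroma, epithelium, muscle and endothelium, 11 held a peak and Wnt7a did not. Over all protein-coding genes 55.7% held one. The list reports peaks and not expression, and in bulk tissue fewer cells of a type and less RNA per cell cannot be told apart.

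Promoter windows from RefSeq (GRCm38.p6, the assembly of mm10) cover 250 bases before to 50 bases after a listed transcript start. They were found for 7 of the 8 genes, with 12 windows in all, and Gnai2 had no entry. The strongest peak reached at least 50 bases into such a window in 4 genes. The covered stretches are printed on the gene's own strand, because they are the part of these peaks whose letters are known here. Capitals mark GGAC, a core of the motif that the methyltransferase favours. Other forms of this motif were neither marked nor counted, so a stretch without GGAC may still hold one.
Ahdc1, chr4:133011432-133011555, plus strand: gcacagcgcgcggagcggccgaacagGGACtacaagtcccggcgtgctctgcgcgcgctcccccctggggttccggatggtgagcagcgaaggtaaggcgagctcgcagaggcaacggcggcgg
Znhit6, chr3:145576178-145576265, plus strand: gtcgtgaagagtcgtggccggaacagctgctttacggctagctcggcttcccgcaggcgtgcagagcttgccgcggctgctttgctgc
Ssbp3, chr4:106911445-106911519, plus strand: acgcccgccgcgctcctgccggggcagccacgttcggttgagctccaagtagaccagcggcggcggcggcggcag
Syncrip, chr9:88482348-88482647, minus strand: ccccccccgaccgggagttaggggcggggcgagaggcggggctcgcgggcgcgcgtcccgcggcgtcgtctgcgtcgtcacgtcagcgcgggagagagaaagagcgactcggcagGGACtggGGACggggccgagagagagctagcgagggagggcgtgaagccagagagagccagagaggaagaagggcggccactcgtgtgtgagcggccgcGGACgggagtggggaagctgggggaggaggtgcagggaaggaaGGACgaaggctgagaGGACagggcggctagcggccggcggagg

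The strongest peak of Syncrip covered its whole window and had its summit inside it. That stretch held GGAC 5 times on the gene strand, and 1 of these was followed by T (GGACT). Its first 56 bases lie outside the annotated gene span. The Ahdc1 stretch held GGAC 1 time, as GGACT, and the stretches of Znhit6 and Ssbp3 held none, with 23 and 25 of their bases outside the gene span. The GGACT of Ahdc1 and that of Syncrip lie upstream of the listed starts, at 133011506 and 88482397, but inside the annotated gene spans. The final GGAC of the Syncrip stretch lies downstream of its listed start. Whether these motifs are part of the RNA was not established. The summits of Ahdc1, Znhit6 and Ssbp3 lay beyond the windows, so their letters are not shown. The share of G and C in the stretches was 71.8% in Ahdc1, 64.8% in Znhit6, 76.0% in Ssbp3 and 72.3% in Syncrip. Over all 32851 windows of 300 bases the median was 52.7%, but only the Syncrip stretch is a whole window. The whole windows that the peaks reached had 69.0% in Ahdc1 and 80.3% in Ssbp3. Those of Znhit6 had 54.3% and 54.7%, close to the median.

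Over the 12 windows of these genes, GC content ran from 48.0% to 80.3% with a median of 59.3%. The number of CG dinucleotides ran from 3 to 50 with a median of 18, against 7 over all windows. GGACT stood on the gene strand in 5 of the 12 windows, where 26.1% of all windows held it. On the opposite strand it stood in 7 of 12, where 26% of all windows held it. GGAC, which includes every GGACT, stood on the gene strand in 8 of 12, where 65.6% of all windows held it. Several windows of 1 gene overlap or share a locus, so these counts do not come from 12 independent stretches.

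The strongest summit was at most 1000 bases from a gene end in 7 of the 8 genes. The same held for 36.3% of all protein-coding genes with a peak, and since the distance chose the genes the count is no result about them. Distances in these 7 genes ran from 104 bases in Syncrip to 511 in Svbp. Aebp2 was the exception, with its summit 1346 bases inside its span, so for this gene the description as a peak at a gene end is loose. The 7 genes with a known strand all had their strongest summit nearer the gene start than the transcript end. Over the 9694 peak-carrying protein-coding genes with a known strand, 39.2% did. Those genes were not chosen for a high fold or for a summit near an end, so nothing is read from this contrast. Which end of Gnai2 lies near its strongest summit was not established from the sources used here.

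Ahdc1 encodes an AT-hook DNA-binding protein (NCBI Gene 230793, chromosome 4, 133011265 to 133078110). Its strongest peak spanned 133011432 to 133012266 with the summit at 133011703, 438 bases inside the span and 197 bases downstream of the listed start. There, 132 immunoprecipitated (IP) fragments stood over a local background of 0.939 scaled fragments. The authors' fold enrichment, the ratio of these after 1 is added to each, was 68.6. Taking the background as known, the exact 95% Poisson interval of the IP fragments gave 57.5 to 81.3. Such intervals cover the counting error of the IP fragments only. Ahdc1 held 5 other peaks of 5.29-fold to 17.4-fold. The widest of them, 5083 bases at 133061350 to 133066432, had 118 IP fragments, close to the strongest peak, but a background of 8.03 and so 13.2-fold (10.9 to 15.8).

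Znhit6 encodes a zinc finger protein that helps assemble box C/D small nucleolar RNPs (NCBI Gene 229937, chromosome 3, 145576201 to 145605245). Its strongest peak was 1092 bases wide, at 145576178 to 145577269, and reached 65.2-fold (54.8 to 76.8), with 139 IP fragments over 1.15. The summit lay 443 bases downstream of the listed start. A second peak 2090 bases into the gene reached 9.26-fold (6.62 to 12.6) from 38 fragments. The third, 1321 bases from the transcript end, reached 4.32-fold from 22 fragments. The strongest interval overlapped neither of the other intervals.

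Aebp2 encodes a zinc finger partner of Polycomb repressive complex 2, which methylates histone H3 (NCBI Gene 11569, chromosome 6, 140622454 to 140678472). The strongest peak, at 140623468 to 140624316, reached 55.1-fold (44.95 to 66.8) from 101 IP fragments over 0.852. The gene has 3 listed starts, and the summit, at 140623800, stood at -1109 bases from the nearest of them, that is, upstream of it. The summit was downstream of the first listed start, at 140622663. A weaker peak lay closer to the gene start, 370 bases inside the span, with only 10 IP fragments and 6.55-fold (3.45 to 11.5). Its background of 0.679 was the lowest of any peak in this gene. The neighbouring peaks thus differed 101 to 10 in IP fragments at backgrounds of 0.852 and 0.679. The 2 peaks farther inside reached 8.07-fold and 3.31-fold.

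Gnai2 encodes an inhibitory G protein alpha subunit that lowers cyclic AMP (NCBI Gene 14678, chromosome 9, 107614125 to 107635391). Its strongest peak, at 107635057 to 107635423, had its summit 145 bases from one end of the span. It reached 46.5-fold (38.1 to 56.3) from 103 IP fragments over 1.24. At the opposite end, 549 bases from the edge of the span, a peak at 107614500 to 107614940 had more IP fragments, 148. Its background was 51.3, and its fold was 2.85 (2.41 to 3.35). The remaining peak, inside the gene, reached 8.09-fold (6.35 to 10.2) from 72 fragments.

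Ssbp3 encodes a single-stranded DNA-binding cofactor of LIM-domain transcription complexes (NCBI Gene 72475, chromosome 4, 106911470 to 107049694). Its strongest peak, at 106911445 to 106911906, reached 46.3-fold (37.7 to 56.4) from 98 IP fragments over 1.14, with the summit 157 bases after the listed start. Its 3 other peaks lay at the ends as well. One stood 1388 bases from the start at 5.76-fold, and the others stood 1609 and 768 bases from the transcript end at 3.80-fold and 5.33-fold. The peak 1609 bases from the transcript end had 85 IP fragments, not far below the 98 at the start, over a background of 21.6.

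Syncrip encodes hnRNP Q, an RNA-binding protein of splicing and mRNA translation (NCBI Gene 56403, chromosome 9, 88449364 to 88482591). Its strongest peak, at 88482064 to 88482672, reached 41.0-fold (34.0 to 49.0) from 119 IP fragments over 1.93. This background was the highest among the 8 strongest peaks. Its summit lay 104 bases inside the span, in the window printed above, at -90 bases from the listed start of the transcript, which is upstream of that start. Its 5 weaker peaks had folds of 2.26 to 6.06. They had 35 to 91 IP fragments over backgrounds of 4.94 to 24.7.

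Svbp encodes the small partner of the vasohibins, which remove the terminal tyrosine of alpha-tubulin (NCBI Gene 69216, chromosome 4, 119195310 to 119201298). At 5.99 kb it was the shortest of the 8 spans, which ran up to 138 kb in Ssbp3. Its strongest peak, at 119195572 to 119196012, reached 40.8-fold (31.6 to 51.8) from 65 IP fragments over 0.618. Its only other peak lay 296 bases from the transcript end and reached 4.77-fold (3.55 to 6.30) from 48 fragments over 9.26.

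Rp2 encodes a GTPase-activating protein for the ciliary trafficking GTPase ARL3 (NCBI Gene 19889, chromosome X, 20364481 to 20405653). Its strongest peak was the narrowest of the 8, at 279 bases (20364542 to 20364820). It reached 40.2-fold (31.1 to 51.1) from 64 IP fragments over 0.618, with the summit 180 bases after the listed start. An inner peak 12425 bases from the start had 55 fragments and 11.6-fold (8.79 to 15.0). A pair of narrow peaks farther inside had 12 and 16 fragments and reached 5.82-fold and 8.55-fold. The first of these is the only one of the 32 summits that also lay in another annotated gene.

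**Figure D1:**
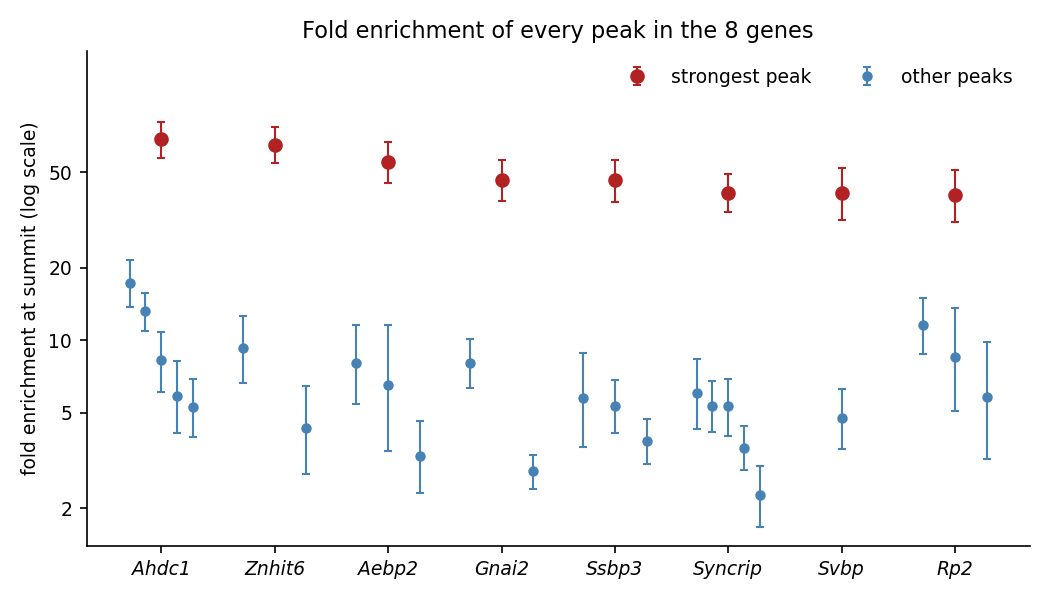
Fold enrichment at the summit (log axis) of all 32 peaks in the 8 genes, with the strongest peak of each gene in red, its other peaks in blue and exact 95% Poisson intervals on the IP fragments as bars. The strongest peaks sit between 40.2-fold and 68.6-fold and the 24 others between 2.26-fold and 17.4-fold, and no red bar reaches a blue bar of the same gene. The bars take the background as known.

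In each gene the strongest peak stood apart from the next in fold, with the background taken as known. That background was only 0.618 to 1.93 scaled fragments at the strongest peaks, and no interval includes its error. The ratio of the strongest to the next fold ran from 3.47 in Rp2 and 3.95 in Ahdc1 to 8.04 in Ssbp3 and 8.55 in Svbp, with a median of 6.80. Over the 7998 protein-coding genes with at least 2 peaks the median ratio was 1.37, and 3.39% of them reached 3.47. The fold that chose the genes enters this ratio, so a high value follows in part from the choice. The 8 genes held a median of 4 peaks each, against 2 over all protein-coding genes with a peak. Their median span was 37.2 kb, against 25.1 kb.

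**Figure D2:**
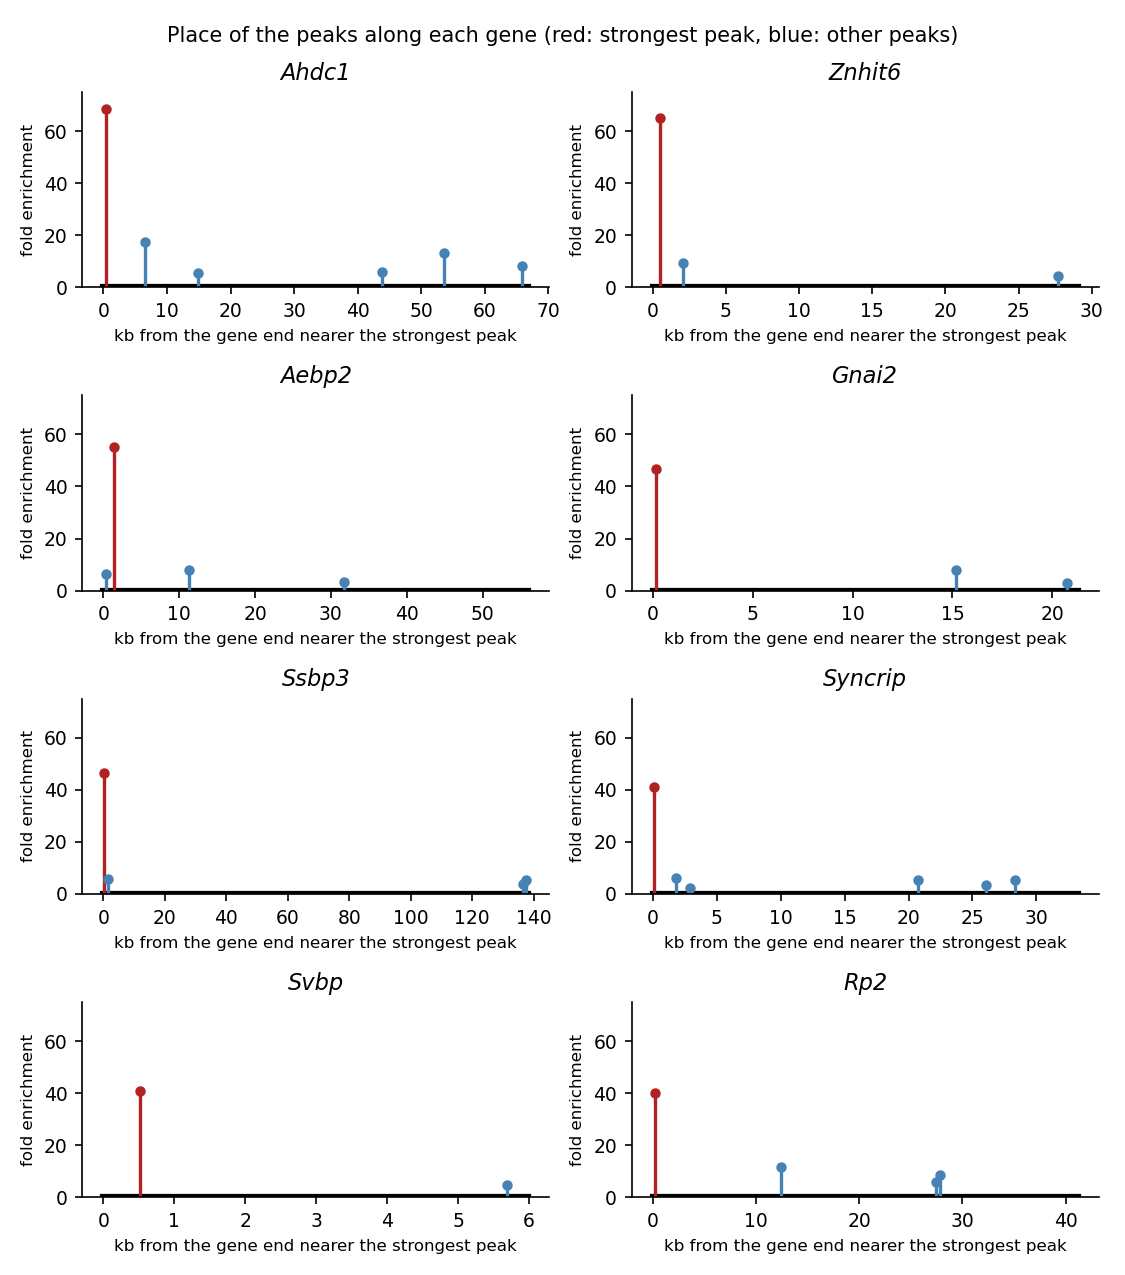
Fold enrichment (vertical axis) of each peak against its distance in kb from the gene end nearer the strongest peak (horizontal axis), one panel per gene, with the gene span as a black bar. The red strongest peaks stand between 104 and 1346 bases from that end, while the blue peaks spread along the span at 17.4-fold or less.

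Some of the genes also held a peak near the opposite end. Of the 8 genes, 5 held a peak within 2000 bases of the end opposite the strongest peak, 6 peaks in all. Among the 7998 protein-coding genes with at least 2 peaks, 39.7% did. These were in Ahdc1, Znhit6, Gnai2, Svbp and, with 2 peaks, Ssbp3. Their folds ran from 2.85 in Gnai2 to 8.25 in Ahdc1, and those of the 18 remaining weaker peaks from 2.26 to 17.4. All are below the strongest peak by the choice of that peak. Their IP fragments ran from 22 to 148 and their backgrounds from 4.32 to 51.3.

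The strongest peaks combined many IP fragments with little background. They had 64 to 139 IP fragments, with a median of 102, and backgrounds of 0.618 to 1.93, with a median of 1.04. The 24 other peaks had 10 to 148 IP fragments, with a median of 48, and backgrounds of 0.679 to 51.3, with a median of 6.48. Over the strongest peaks of all 12134 protein-coding genes the medians were 35 IP fragments and a background of 3.09. In 7 of the 8 genes the strongest peak also had the most IP fragments of the gene, the exception being Gnai2, against 48.3% of the 7998 protein-coding genes with at least 2 peaks. In 7 of 8 it had the lowest background, the exception being Aebp2, against 48% of the 7998 genes. Both counts are the terms of the fold by which peaks and genes were chosen, so nothing is read from them.

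The share of these terms differed between genes. In Ssbp3 the strongest peak had 5.16 times the IP fragments of the peak next in fold, whose background was 2.17 times higher. Rp2 was the reverse, with 1.16 times the IP fragments and a background 6.20 times higher at the next peak. Svbp was like Rp2, with 1.35 times the IP fragments and a background 15.0 times higher at its other peak. How much RNA stood behind each background was not measured here, and its part in the folds was not tested.

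**Figure D3:**
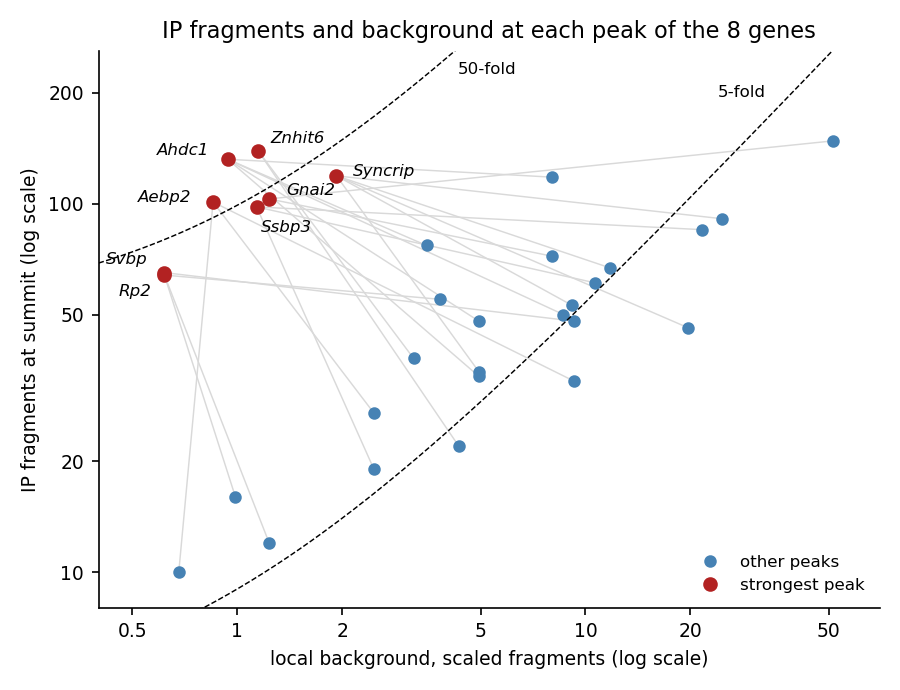
IP fragments at the summit against local background (both log axes) for the 32 peaks, with grey lines joining each gene's strongest peak (red) to its other peaks (blue) and dashed lines at 5-fold and 50-fold. The red points lie at backgrounds of 0.618 to 1.93, and only 3 blue points lie at a background under 2.

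The order of the genes depended on the measure. By −log10 q, the caller's score of significance, the strongest peaks of these genes ranked from 2 (Znhit6, −log10 q of 226) to 183 (Rp2, 99.9) among 12134 genes. By IP fragments they ranked from 238 (Znhit6) to 2570 (Rp2). By fold, over all summits including those shared by several genes, they ranked from 1 to 15. The interval of Ahdc1 overlapped only those of Znhit6 and Aebp2, while that of Aebp2 overlapped the interval of every other gene. Znhit6 overlapped Gnai2 and Ssbp3 as well, but not Syncrip, Svbp or Rp2. The intervals of these last 5 genes overlapped one another.

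The choice of 12 genes was bounded by close values. Rp2, the last inside it, had 40.2-fold. Lemd3, the next gene by the same rule (a summit in no other gene and a −log10 q of at least 5), had 39.7-fold (31.4 to 49.6), with its summit 158 bases from the gene start. It was followed by Tchh at 39.4-fold and Zbtb10 at 38.9-fold, with summits 2981 and 1041 bases from the nearer end. The next with a summit within 1000 bases of an end after Lemd3 were Gpatch4 at 38.3-fold and Plxna2 at 38.3-fold. The 4 genes of the 12 with a summit deep inside were Gphn (54.3-fold), Camk1d (50.7-fold), St6galnac3 (41.6-fold) and Peak1 (40.4-fold). Their summits lay 22605 to 133651 bases from the nearer end. They had 81 to 214 IP fragments over backgrounds of 0.618 to 4.32, ranges that overlap those of the 8 genes. Their ratio of strongest to next fold ran from 2.95 in Gphn to 5.63 in Camk1d, which also overlaps the 8 genes.

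Across all genes, strongest peaks of high fold lay more often near the gene start. Of 9694 protein-coding genes with a known strand, 17.1% had their strongest summit within 1000 bases of the gene start and 20.6% within 1000 bases of the transcript end. Among genes whose strongest peak was under 5-fold, 10.5% (exact Clopper-Pearson 95% interval 9.03 to 12.2) lay near the start and 41.1% (38.6 to 43.6) near the transcript end. At 10-fold to 20-fold these shares were 21.5% (19.9 to 23.1) and 11.1% (9.93 to 12.3). At 20-fold to 30-fold they were 33.2% (27.6 to 39.2) and 10.1% (6.74 to 14.3). At 30-fold to 40-fold, 14 of 38 genes lay near the start and 0 near the transcript end (exact interval 0 to 9.25%). None of these groups holds any of the 8 genes. Of the 14 genes at 40-fold and over, 8 lay near the start, and 6 of the 8 genes described here are among those.

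**Figure D4:**
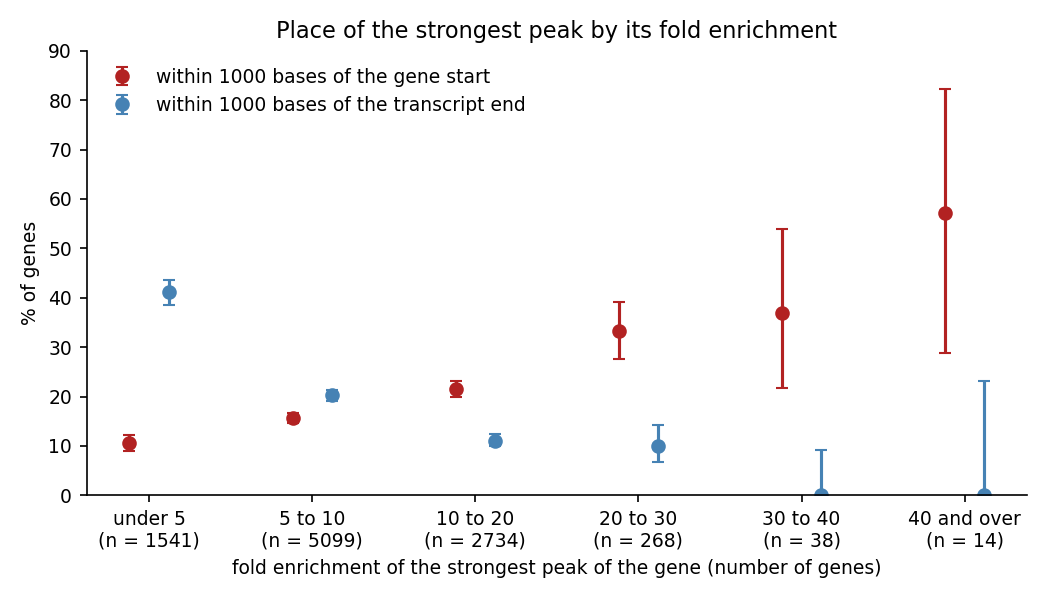
Share of protein-coding genes (%) whose strongest summit lay within 1000 bases of the gene start (red) or of the transcript end (blue), by the fold of that peak, with exact Clopper-Pearson 95% intervals as bars and the number of genes on the axis. The red share runs from 10.5% under 5-fold to 57.1% at 40-fold and over, and the blue share from 41.1% to 0. The last group is 14 genes, with an interval of 28.9% to 82.3% for the red share. It holds 7 of the 8 genes, which were chosen for a summit near an end. At 30-fold to 40-fold, a group that holds none of them, the red share was 36.8%.

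The order by place depended on the measure. Among the 100 genes with the highest fold, 36 lay near the start and 3 near the transcript end. Among the 100 with the highest −log10 q these numbers were 24 and 8. Among the 100 with the most IP fragments, 14 lay near the start and 25 near the transcript end. Local background moved with place: its median was 1.85 at strongest peaks near the start (1654 genes) and 4.94 near the transcript end (1869 genes), and IP fragments had medians of 27 and 40. Genes whose summit lay near both ends are counted with the start in these medians. The part of background in the order by fold was not tested. In genes of at least 20 kb, where 1000 bases are a smaller part of the span, the share near the start ran from 3.91% under 5-fold to 28.4% at 20-fold to 30-fold.

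Relatives and partners of the 8 genes were examined as a list of 64 genes, of which 63 matched the annotation by symbol. A peak was present in 53 of them (84.1%, exact Clopper-Pearson 95% interval 72.7 to 92.1), where 55.7% of all protein-coding genes held one. The median of the strongest fold was 8.76, against 8.04 over all protein-coding genes with a peak, and the highest was 23.4, below all 8 genes. Of the 43 with a peak and a known strand, 17 (39.5%) had their strongest summit within 1000 bases of the gene start, beside 17.1% over all genes. The list was not chosen for expression in the uterus, and absence of a peak does not show absence of the mark. It was chosen with earlier results of these data known and is no random sample of genes. The interval therefore measures no spread between such lists, and nothing is read from these differences.

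Families within this list are small, and their counts stand beside the same 55.7% of all protein-coding genes. Nothing is read from these counts either. G protein subunits all held peaks, 11 of 11. They were led by Gna13, a G protein alpha subunit gene, at 21.3-fold (16.4 to 27.2), with its summit 264 bases from the gene start and inside 2 gene spans. In 6 of the 10 G protein genes with a known strand the strongest summit lay within 1000 bases of the start. Among them were the other inhibitory subunits, Gnai1 at 9.20-fold and 136 bases and Gnai3 at 6.59-fold and 187 bases. In the other families this count was 2 of 10 for Znhit6, 4 of 6 for Aebp2, 2 of 4 for Ssbp3, 3 of 6 for Rp2, 0 of 3 for both Syncrip and Svbp, and 0 of 1 for Ahdc1. The counts, and the 17 of 43 above, include Znhit2 and Tbcc. Their summits lay 951 and 880 bases from the start but also 310 and 962 bases from the transcript end. Genes of snoRNP assembly and the HIT zinc finger family also held peaks in 12 of 12, led by the rRNA methyltransferase gene Fbl at 18.7-fold.

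Genes of Polycomb repressive complex 2 held peaks in 7 of 11, led by the histone chaperone gene Rbbp7 at 13.3-fold with its summit 137 bases from the start. Ezh1 and Ezh2, the catalytic subunits, had no peak, and neither did Phf1 and Phf19. Of the 7 genes of the LIM cofactor complex, 6 held peaks, led by Ssbp4, a paralog of Ssbp3, at 12.7-fold and 197 bases from the start. Lhx1 had none. The other paralog, Ssbp2, had 5.48-fold with the summit 89655 bases from the start.

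In the hnRNP R family, 3 of 5 genes held a peak, led by Rbm47 at 16.5-fold, while A1cf and Dnd1 had none. Hnrnpr, the closest paralog of Syncrip, reached 8.32-fold with its summit 3161 bases from the start. The 3 matched genes of the tubulin tyrosine cycle all held peaks, led by the ligase gene Ttl at 13.3-fold, with a summit inside 2 gene spans. The vasohibin genes themselves, Vash1 and Vash2, reached 3.61-fold and 8.65-fold. Of 8 genes of the ARL system 7 held peaks, led by Tbcc, a tubulin folding cofactor, at 11.4-fold, and Unc119 had none. Of 6 AT-hook genes 4 held peaks, led by Setbp1 at 23.4-fold (18.7 to 28.9), while Hmga1 and Hmga2 had none.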

How the data were processed

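The deposited peak list of the m6A library against the input was the only data file used. The submitters' processing notes name mm10, HISAT2 2.2.1 and MACS3 3.0.0a7; the settings used are not stated in these sources. The deposited fold enrichment is a ratio, IP over local background at the peak summit, and the deposited −log10 p and −log10 q values are the caller's. The deposited display score was not used. All of these serve only to describe and rank peaks within this list, which carries no strand.

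IP fragments k and background were recovered from the deposited fold, (k + 1)/(background + 1), and the Poisson p, which matched within 0.001 at 100% of peaks. On simulated data, k was recovered at 100% of 1146 peaks. Library totals are not known. Coordinates are counted from 1.

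A peak belonged to a gene if its summit lay in the span of the gene in RefSeq GRCm38.p6. The 365 rows outside assembled chromosomes were left out, leaving 49632 genes, 21787 of them protein-coding. Strand came from the RefSeq promoter table. A gene start is the span edge at the 5' end of the gene on that strand and a transcript end the other edge. Exon positions and genome sequence were not used here.

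The 8 genes and the lists were chosen with earlier results of these data known. Named genes were the 8 genes, the other 4 of the 12, the next 3 by fold, the next 3 near a gene end, and in each list of relatives the highest gene and those without a peak. Others (Gnai1, Gnai3, Ssbp2, Hnrnpr, Vash1, Vash2, Znhit2) were named after their values were seen. Alternatives tried were a −log10 q of at least 5, overlap of 1 base or 50% of the peak, summits in 1 gene only, nothing added to the ratio, ranking by −log10 q, other distance limits and, added after seeing the data, 2 times the background. Scripts ran on Python 3.11.15 with scipy 1.17.1, pandas 2.3.3, numpy 2.4.6 and, for figures, matplotlib 3.10.9.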

Additional observations from a re-analysis of the deposited data

How the results depend on the processing

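Of 70 alternative values, 52 stayed and 18 moved. Folds under the −log10 q limit and the limit to 1 gene could not change, because the choice of genes used both limits. Those under the overlap limits could change only where a peak crosses a span edge. The number that stayed is therefore no measure of robustness. A fold moved where it left its counting interval and a count where it changed by over 1.5 times, while the median ratio of strongest to next fold, which has no such interval, was counted as moved at any change. No paired analysis was possible because each group held 1 library. With nothing added to the ratio, k over background was 141 in Ahdc1, 121 in Znhit6, 119 in Aebp2, 83.4 in Gnai2, 86.2 in Ssbp3, 61.8 in Syncrip, 105 in Svbp and 104 in Rp2. With the background multiplied by 2, chosen after seeing the data, the folds were 46.2, 42.5, 37.7, 29.97, 30.3, 24.7, 29.5 and 29.1 in that order. These changes follow from the construction of the ratio, whose denominator is small. The median ratio of strongest to next fold was 9.01 with nothing added and 6.93 with peaks ranked by −log10 q, against 6.80. The count within 1000 bases of an end was 7, with 6 at 500 bases and 8 at 2000. Library totals are unknown, and no interval includes error in the background.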
